A study of Mus musculus with 2 samples.

Results

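The lysosomal enzymes, membrane proteins and sorting adaptors of the liver were compared between a miR-182-5p KO library and a WT library. The members are genes assigned in the authors' table to the KEGG pathway of the lysosome (mmu04142) and not to oxidative phosphorylation (mmu00190), without Cd68, Npc1 and Npc2. They number 110 of the 34745 genes listed and of 123 genes annotated to the lysosome, and 10 proton pump subunits that also belong to oxidative phosphorylation fall outside the rule. They were placed in classes by their known roles: 16 cathepsins, 3 other proteases, 17 glycosidases, 8 sulfatases with their activator, 9 lipases and proteins of lipid degradation, 5 other soluble enzymes, 21 membrane proteins, 6 proteins of mannose 6-phosphate tagging and sorting receptors, and 24 sorting adaptors and clathrin chains. Gm21685, a near copy of Entpd4, was left without a class after the table was read.

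Both libraries came from the liver of male mice, 8 to 10 weeks old, after 2/3 partial hepatectomy (PH), an operation after which the remaining lobes regrow. Per the study's text, the KO mice are heterozygous for the knockout of miR-182-5p, with no restriction to a cell type described, and RNA was taken at day 3. The WT mice had the same operation, and no further treatment is given for either group. The number of mice behind each library is not given in the sources used here. Each genotype has 1 library, so no difference below has a replicate check, and every interval covers counting error only. The miRNA itself is not among the genes analysed here, and the genotype labels were not checked on it.

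Lysosomes are acidic organelles that break down proteins, glycans, lipids and nucleic acids brought in by endocytosis and autophagy. Most of their soluble enzymes receive a mannose 6-phosphate tag in the Golgi, are bound there by receptors and leave in vesicles built by clathrin and the GGA and AP-1 adaptors, while AP-3 carries membrane proteins such as the LAMPs. In the liver, hepatocytes and Kupffer cells are both rich in lysosomes. Many lysosomal genes carry in their promoters the CLEAR element, built on the letters CACGTG, through which TFEB and TFE3 act when mTORC1 is low.

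The sequences that the genotype and the pathway turn on are given first. Mature miR-182-5p lies at chr6:30165962-30165986 on the minus strand of GRCm38.p6 (RefSeq), and its seed, bases 2 to 8, is in capitals.

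miR-182-5p: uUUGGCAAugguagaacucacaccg

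The 8-base match to this seed, TTGCCAAA, was present in the 3′ UTR of 3 of the 99 members tested below, 3.03%, against 690 of 12541 tested genes with an annotated 3′ UTR, 5.50%. The matches are shown because they are the only ones among the tested members, on the transcript strand of GENCODE M21 with the match in capitals. They lie in Aga, which cleaves the bond between asparagine and a sugar chain, in Galc, the galactosylceramidase, and in Gnptab, a subunit of the enzyme that begins the mannose 6-phosphate tag.

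Aga: cagccatagcTTGCCAAAaagtgatttt
Galc, first match: gatgtctctgTTGCCAAAatattgtttg
Galc, second match: gtgtaaggttTTGCCAAAgtggtacact
Gnptab: agaaagccacTTGCCAAAagaagaggag

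None of these genes was called by the rule given below, which called 7.97% of all tested genes higher and 8.32% lower. Aga had 53 counts in KO and 120 in WT, Galc had 30 and 34, and Gnptab had 69 and 127. Their log2 fold changes of KO over WT were -0.58, 0.41 (-0.19 with total counts) and -0.29. A match of letters is a description and not a site of binding.

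The CACGTG core was searched on both strands in the RefSeq promoter windows of GRCm38.p6, from 250 bases before to 50 after each start. It was present in 21 of the 87 members with a window, 24.1%, and in 2187 of 27025 genes, 8.09%. The longer palindrome TCACGTGA, which contains CACGTG, was present in 9 of the 87, 10.3%, and in 304 of the 27025, 1.12%. Of all windows of this length, some genes having several, 7.15% held CACGTG and 0.974% held TCACGTGA. The 9 members with the palindrome are shown with the bases on either side, on the strand of the gene and with the motif in capitals, because they name the enzymes, membrane proteins and tagging proteins that carry it. In Ctsa a second copy runs past the end of the stretch.

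Cd164, chr10:41519396-41519435, plus strand: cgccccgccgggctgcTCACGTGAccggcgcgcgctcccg
Cln3, chr7:126583335-126583374, minus strand: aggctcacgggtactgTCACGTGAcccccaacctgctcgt
Ctsa, chr2:164833744-164833783, plus strand: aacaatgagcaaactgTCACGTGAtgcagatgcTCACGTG
Ctsd, chr7:142387903-142387942, minus strand: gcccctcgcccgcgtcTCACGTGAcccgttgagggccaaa
Gla, chrX:134601210-134601249, minus strand: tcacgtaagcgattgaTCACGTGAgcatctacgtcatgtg
Gnptg, chr17:25240115-25240154, minus strand: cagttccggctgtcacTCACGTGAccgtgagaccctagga
Igf2r, chr17:12769732-12769771, minus strand: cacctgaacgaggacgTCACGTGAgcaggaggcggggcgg
Mcoln1, chr8:3500457-3500496, plus strand: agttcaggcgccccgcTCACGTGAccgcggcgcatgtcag
Sumf1, chr6:108185572-108185611, minus strand: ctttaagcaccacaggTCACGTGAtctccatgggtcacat

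The whole window is shown for Ctsd and Lamp1, an enzyme and a membrane protein of the lysosome with high levels in both libraries. The window of Lamp1 holds 4 copies of CACGTG and that of Ctsd holds 2, 1 of them within TCACGTGA.

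Ctsd, chr7:142387778-142388077, minus strand: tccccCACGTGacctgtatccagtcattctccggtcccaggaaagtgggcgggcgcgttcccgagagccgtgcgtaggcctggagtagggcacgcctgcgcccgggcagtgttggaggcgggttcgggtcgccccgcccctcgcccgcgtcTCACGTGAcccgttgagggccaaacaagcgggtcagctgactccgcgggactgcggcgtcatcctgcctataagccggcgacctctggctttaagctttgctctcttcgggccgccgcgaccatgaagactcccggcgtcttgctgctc
Lamp1, chr8:13158911-13159210, plus strand: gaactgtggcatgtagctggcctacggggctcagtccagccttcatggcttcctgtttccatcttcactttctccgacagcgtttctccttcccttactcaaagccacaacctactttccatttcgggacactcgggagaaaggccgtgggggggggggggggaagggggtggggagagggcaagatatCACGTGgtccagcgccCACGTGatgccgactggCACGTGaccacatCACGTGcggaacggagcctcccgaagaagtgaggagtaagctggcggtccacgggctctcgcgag

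By class, CACGTG was found in 4 of 12 cathepsins with a window, 4 of 13 glycosidases, 3 of 6 sulfatases, 4 of 17 membrane proteins and 3 of 4 tagging proteins and receptors. It was found in 2 of 21 adaptors and in none of the 8 proteins of lipid degradation. The 23 members with no match in the promoter table, and so not searched here, include Ctsb, Asah1 and M6pr.

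Total counts were 13247497 in KO and 13163348 in WT. The 13 mitochondrial protein-coding genes took 51.7% of them (95% exact binomial interval 51.6 to 51.7) in KO and 31.0% (30.9 to 31.0) in WT, which left 6402928 and 9086919 nuclear counts. Library sizes were scaled by TMM, a method that centres the bulk of the genes, and the median log2 fold change of KO over WT was 0.00 over the 13561 genes tested, those whose counts in both libraries summed to 10 or more. With total counts as the only scaling, values lie about 0.60 lower on the log2 scale. A gene was called when it differed at least 2-fold and the adjusted p of an exact binomial test of the library counts (Benjamini-Hochberg over all genes tested) was 0.05 or less. The test speaks of the libraries, not of the genotypes.

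Few lysosomal genes differed 2-fold between the libraries, while lysosomal transcripts together took a smaller share of the nuclear counts in KO. Of the 110 members 99 could be tested. In KO, 4 were called higher (4.04%), where 7.97% of all tested genes were called, and 7 lower (7.07%), where 8.32% were called. Both shares lie below those of all genes. The order of the lower share turns with the scaling, since with total counts 37 members were called lower (37.4%), where 25.05% of all tested genes were (3397 genes). With total counts 3 members were called higher (3.03%), where 3.47% of all tested genes were. The counting interval of the log2 fold change lay wholly above 0 for 23 members (23.2%, against 25.8% of all genes) and wholly below 0 for 42 (42.4%, against 26.2%). Intervals narrow as counts rise, and the members were not matched to genes of like level. Of 868 abundant nuclear genes, described below, 30.8% had intervals wholly above 0 and 53.8% wholly below. The median of the members was -0.16, with quartiles of -0.63 and 0.26 and a range of -2.60 to 2.72.

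Together the members took 35367 counts in KO and 65227 in WT. This is 0.552% of the nuclear counts (0.547 to 0.558) in KO and 0.718% (0.712 to 0.723) in WT, a log2 ratio of -0.29 after TMM scaling. The intervals of these shares do not overlap. Bulk counts cannot tell fewer cells of a type from less RNA per cell.

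The called members were of low to moderate level, at most 6.63 FPKM (a level scaled by gene length and by the total of the library) in either library. Higher in KO were Gga2, Idua, Ctsw and Abcb9, and those lower include Asah1, Dnase2b, Ap3m1, Cln3, Ap1s2 and Cltb. Of these, Ap3m1 shares 29.8% of its exonic length with Vcl on the opposite strand, so that its counts are uncertain, since no strand of counting is stated. Cltb lies just inside the 2-fold limit at -1.0. Of the 34 members above 0, 24 lie below 0 with total counts and 10 lie above 0 with either scaling, among them the 4 called higher.

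**Figure D1:**
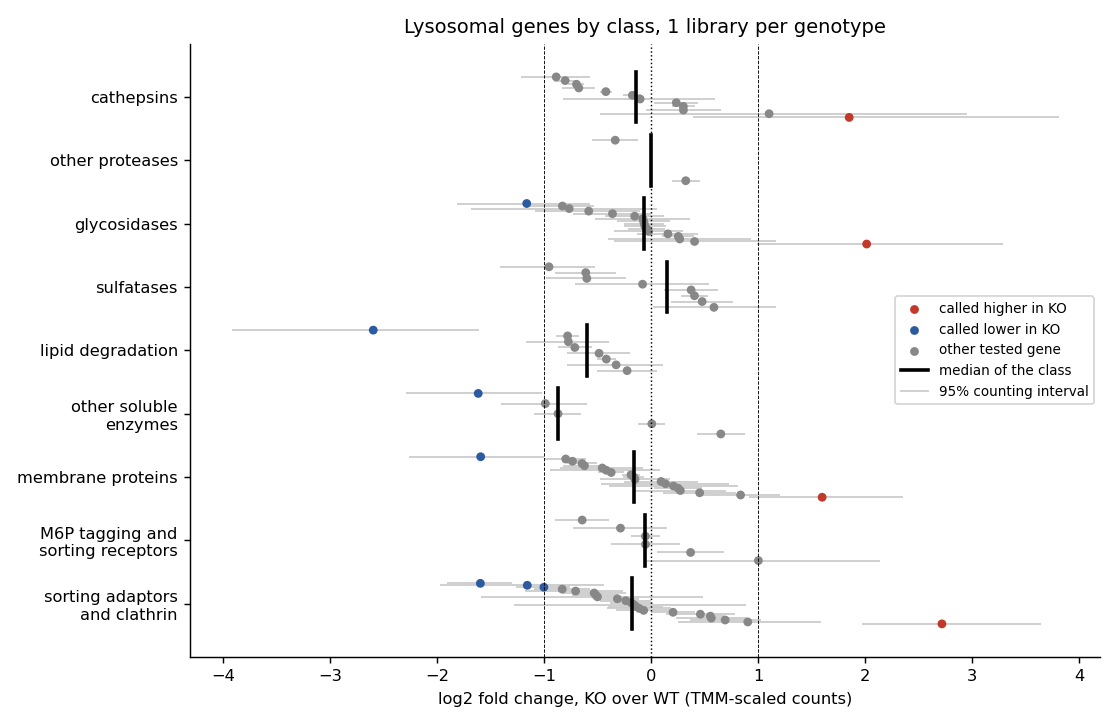
Log2 fold change of KO over WT (x axis, TMM-scaled counts) for each of the 99 tested lysosomal genes, arranged by class (y axis), with exact 95% counting intervals as grey lines, class medians as black bars, dashed lines at a 2-fold difference and a dotted line at the median of all genes. The class medians run from -0.87 to 0.15, and the proteins of lipid degradation are the class whose points all lie below 0.

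The cathepsins, the main lysosomal proteases, differed from each other in sign. Of 16 members 12 were tested, with 1 called higher (8.33%, against 7.97% of all tested genes) and none lower (against 8.32%). Their median was -0.14, with 6 intervals below 0 (50%) and 3 above (25%). Over all genes 26.2% lay below and 25.8% above, and over the 868 abundant nuclear genes 53.8% and 30.8%. The cathepsins held 11075 counts in KO and 22110 in WT, or 0.173% (0.170 to 0.176) and 0.243% (0.240 to 0.247) of the nuclear counts. Cathepsin transcripts made up 31.3% of all lysosomal counts in KO and 33.9% in WT.

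Ctsb, Ctsl and Ctsz are cysteine cathepsins and were, with Lamp1, the most abundant lysosomal genes per length. Ctsl (chromosome 13, 64363214 to 64370306) had 2057 counts in KO and 5030 in WT, or 78.8 and 194 FPKM, and stood at -0.70 (-0.77 to -0.62) on the log2 scale. Ctsb had 3659 and 7397 counts and Ctsz had 1858 and 3163, with log2 fold changes of -0.42 (-0.48 to -0.37) and -0.18 (-0.26 to -0.09). All 3 intervals lay below 0 without overlapping each other, with Ctsl lowest.

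Ctsd, the aspartic cathepsin with the promoter shown above, had 1042 counts in KO and 2742 in WT and a log2 fold change of -0.80 (-0.91 to -0.70). Ctsh, an aminopeptidase among the cathepsins, had 489 and 1178 counts and a log2 fold change of -0.68. The lowest value of the class was that of Ctso, a cysteine cathepsin of low level, with 111 counts in KO and 310 in WT, or 1.45 and 4.07 FPKM, which stood at -0.89 (-1.22 to -0.57). Other genes of the annotation overlap 26.8% of the exonic length of Ctsl, 34.4% of that of Ctsd and 12.8% of that of Ctsb, which leaves part of these counts uncertain.

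Ctsa, the carboxypeptidase that stabilises the lysosomal neuraminidase, had 1331 and 1629 counts, or 10.54 and 12.98 FPKM where Ctsh had 5.39 and 13.06, and a log2 fold change of 0.30 (0.20 to 0.41) with TMM and -0.30 with total counts. Ctss, a cathepsin of antigen presenting cells, had 126 and 154 counts, with an interval of -0.05 to 0.65 that holds 0. Ctsk, known from osteoclasts, had 9 counts in KO and 6 in WT and was not called.

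Ctsw (chromosome 19, 5465240 to 5468498), a cathepsin of cytotoxic lymphocytes, rose, with 13 counts in KO and 5 in WT and a log2 fold change of 1.85 (0.39 to 3.81). The natural killer cell genes Ncr1, Klrb1c and Prf1 were at 0 in both libraries and Nkg7 had 1 count in KO and 3 in WT. The 12 lymphocyte and natural killer markers summed to 34 counts in KO and 45 in WT, and 1 of the 3 that could be tested, Cd79a of B cells, was called higher, while the median of the 3 was 0.38. Their part in the Ctsw counts was not tested. Ctsj and Ctsm were at 0 in both libraries, which allows up to 3 counts per library. Ctse had 2 counts in KO and 0 in WT, and Ctsg, a granule protease of neutrophils, 0 and 2.

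Of the other proteases, Lgmn, which cuts after asparagine, had 268 counts in KO and 510 in WT, a log2 fold change of -0.34 (-0.55 to -0.12). Tpp1, a tripeptidyl peptidase, had 860 and 1036, a log2 fold change of 0.32 (0.19 to 0.46) and -0.28 with total counts. With TMM, the intervals of these enzymes lay on opposite sides of 0. Napsa had 0 counts in KO and 2 in WT and was not tested.

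**Figure D2:**
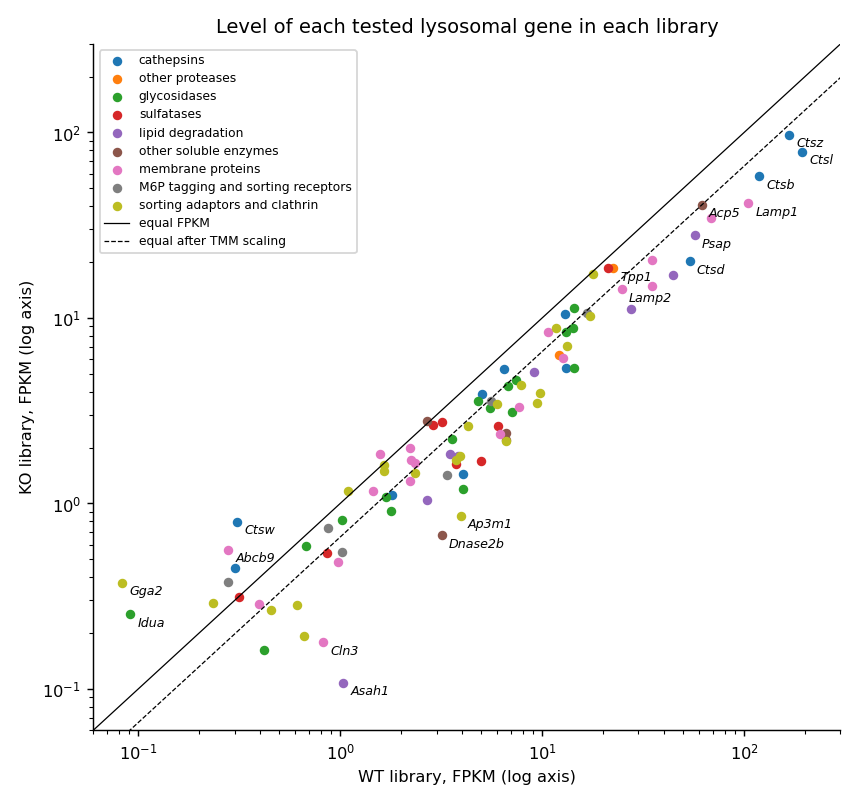
FPKM of each tested lysosomal gene in the WT library (x axis) and in the KO library (y axis), both on log axes, coloured by class, with a solid line where the FPKM are equal and a dashed line where they are equal after TMM scaling. Ctsl, Ctsb, Lamp1 and Ctsd lie below both lines at the upper end, and Gga2, Idua, Ctsw and Abcb9 lie above both at the lower end.

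The glycosidases, which trim sugar chains, lay near the median of all genes. All 17 were tested, with 1 called in each direction (5.88%, against 7.97% higher and 8.32% lower over all tested genes). Of the 17 intervals 11 held 0, as did 6508 of 13561 over all genes, and intervals are wide at low counts. Their median was -0.06, and their share of the nuclear counts was 0.0476% (0.0459 to 0.0493) in KO and 0.0527% (0.0512 to 0.0542) in WT. Gaa, the acid glucosidase of glycogen, had 376 counts in KO and 593 in WT, and its log2 fold change of -0.06 (-0.26 to 0.12) has an interval that holds 0. Gusb, the glucuronidase, had 97 and 188 counts and a log2 fold change of -0.36. Hexa, which acts on gangliosides, had 132 and 354 counts and a log2 fold change of -0.83 (-1.13 to -0.54), short of a call. Man2b1, the acid mannosidase, stood at 0.25 (0.10 to 0.40), which becomes -0.35 with total counts.

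Idua (chromosome 5, 108660331 to 108684557), the iduronidase of heparan and dermatan sulfate breakdown, rose from 10 counts in WT to 28 in KO, a log2 fold change of 2.01 (0.99 to 3.28). Its level was 0.0912 FPKM in WT and 0.254 FPKM in KO, among the lowest of the class. Naglu and Ids, which act on the same chains, were not called. The N-acetylglucosaminidase Naglu had 179 counts in KO and 242 in WT and stood at 0.16 (-0.13 to 0.44), and the sulfatase Ids had 37 and 59 and stood at -0.08 (-0.71 to 0.54).

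The sulfatases remove sulfate from glycosaminoglycans and sulfatides. None of 8 was called, where 7.97% of all tested genes were called higher and 8.32% lower. Of their intervals 4 lay above 0 and 3 below, where 25.8% and 26.2% of all genes did. The median was 0.15, which becomes -0.45 with total counts. Galns, which acts on keratan sulfate, had 58 counts in KO and 170 in WT, a log2 fold change of -0.95 (-1.41 to -0.52). Sumf1, which activates all sulfatases by oxidising a cysteine of their active site, had 151 and 348 counts and stood at -0.61 (-0.90 to -0.33).

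All 8 tested proteins of lipid degradation had values below 0. Of these, 6 had intervals wholly below 0 (26.2% did over all genes and 53.8% over the 868 abundant nuclear genes), and the median was -0.60. They held 3325 counts in KO and 7514 in WT, which is 0.0519% (0.0502 to 0.0537) and 0.0827% (0.0808 to 0.0846) of the nuclear counts. The single call was Asah1 (12.5% of those tested, against 8.32% of all tested genes called lower), and Psapl1 was at 0 in both libraries.

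Asah1 (chromosome 8, 41340197 to 41374773) encodes acid ceramidase, which splits ceramide into sphingosine and a fatty acid. It fell from 76 counts in WT to 8 in KO, a log2 fold change of -2.60 (-3.92 to -1.60), the lowest of the tested members. Smpd1, the acid sphingomyelinase that makes ceramide, had 164 counts in KO and 289 in WT and stood at -0.22 (-0.51 to 0.06). The ratio of Asah1 to Smpd1 in KO was 0.186 times (0.0756 to 0.398) that in WT. This pair and the gene pairs below were chosen after their values were seen, so their intervals describe and do not test.

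Lipa, the acid lipase that frees cholesterol and fatty acids from lipoprotein esters and lipid droplets, had 453 counts in KO and 1120 in WT, or 11.1 and 27.7 FPKM, a log2 fold change of -0.71 (-0.87 to -0.55). Psap, the precursor of the saposins, had 1482 and 2987 counts and stood at -0.42 (-0.51 to -0.33). Gm2a, the activator protein of ganglioside breakdown, had 933 and 2417 and stood at -0.78 (-0.89 to -0.67). These 3 were the most abundant of the class per length in WT, and each interval lay below 0. Ppt1 and Ppt2, thioesterases that remove fatty acids from proteins, stood at -0.77 and -0.49, and the phospholipase Pla2g15 at -0.33 with an interval that holds 0. Gm20460 overlaps 36.6% of the exonic length of Ppt2 on the same strand, so the counts of Ppt2 are uncertain. Summed with Gm20460, which had 1 count in each library, Ppt2 stood at -0.48.

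**Figure D3:**
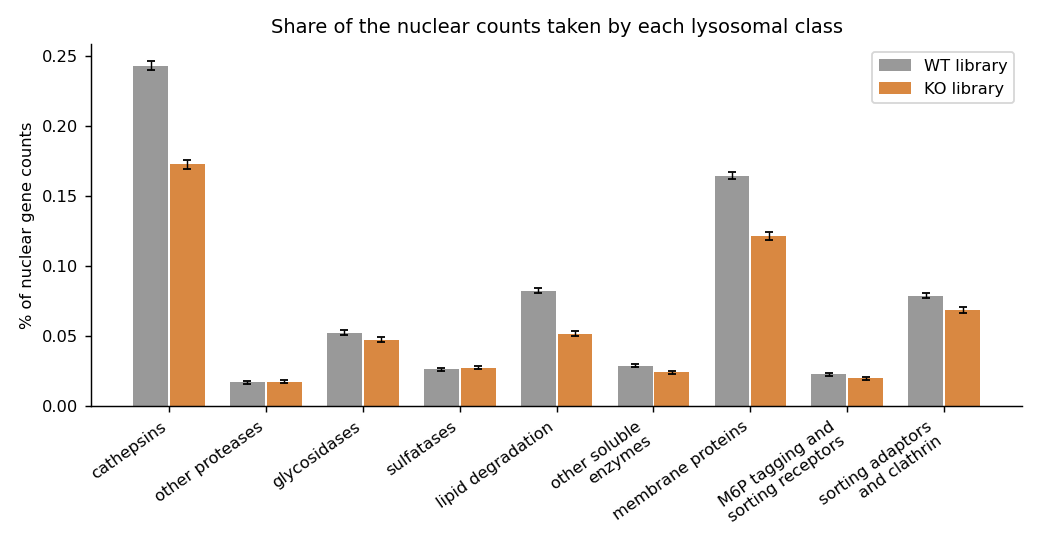
Share of the nuclear gene counts (y axis, percent) taken by each lysosomal class (x axis) in the WT library (grey) and the KO library (orange), with exact 95% binomial intervals that cover counting error only. The cathepsins stand at 0.243% in WT and 0.173% in KO, the membrane proteins at 0.165% and 0.122%, lipid degradation at 0.0827% and 0.0519%, and the sulfatases at 0.0264% and 0.0277%.

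The other soluble enzymes ran in both directions, with a median of -0.87. Among 5, 3 intervals lay below 0 and 1 above, where 26.2% and 25.8% of all genes did. Dnase2b (chromosome 3, 146580985 to 146615596), a lysosomal nuclease, fell from 126 counts in WT to 27 in KO, a log2 fold change of -1.62 (-2.29 to -1.02). Dnase2a, its paralog of wider expression, had 330 in WT and 344 in KO and stood at 0.65 (0.43 to 0.87). Mast1 overlaps 30.0% of the exonic length of Dnase2a on the other strand. The ratio of Dnase2b to Dnase2a was 1.18 in FPKM in WT and 0.243 in KO, which is 0.206 times (0.127 to 0.324) as high.

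The acid phosphatases also differed from each other. Acp2, of lysosomes in most cells, had 239 counts in KO and 659 in WT and stood at -0.87 (-1.09 to -0.66). Acp5, the tartrate-resistant phosphatase of macrophages and osteoclasts, had 872 and 1309, or 40.8 and 61.7 FPKM, and stood at 0.01 (-0.12 to 0.13). The ratio of Acp2 to Acp5 in KO was 0.545 times (0.457 to 0.648) that in WT. Ddb2 overlaps 12.6% of the exonic length of Acp2 on the other strand.

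The membrane proteins form the wall and the transport routes of the lysosome. Of 21 members 19 were tested, and 1 was called in each direction (5.26%, against 7.97% higher and 8.32% lower over all tested genes). The median was -0.16, with 9 intervals below 0 (47.4%) and 4 above (21.1%). Over all genes 26.2% lay below and 25.8% above, and over the 868 abundant nuclear genes 53.8% and 30.8%. Lamp3 and Entpd4 were at 0 in both libraries. Entpd4 shares 100% of its sequence words with another gene, so its counts are uncertain and cannot show whether it is expressed. The class held 7789 counts in KO and 14973 in WT.

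Lamp1 (chromosome 8, 13159135 to 13175338), a main glycoprotein of the lysosomal membrane, had 1243 counts in KO and 3119 in WT, or 41.6 and 105 FPKM. Its log2 fold change was -0.73 (-0.83 to -0.64). Lamp2, its paralog with roles in autophagy, had 1890 and 3246 counts, or 14.3 and 24.8 FPKM, and stood at -0.19 (-0.27 to -0.11). Per length, Lamp1 was 4.24 times as abundant as Lamp2 in WT and 2.90 times in KO, so that the ratio in KO was 0.684 times (0.627 to 0.747) that in WT.

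Scarb2, a sorting receptor of the lysosomal membrane, had 294 counts in KO and 683 in WT and stood at -0.62 (-0.83 to -0.42). The tetraspanin Cd63 had 83 and 172 counts and stood at -0.46, and Laptm4a had 816 and 1594 and stood at -0.37. Laptm5, of blood cells, had 85 and 106 counts and stood at 0.27 (-0.16 to 0.70). Mcoln1, the calcium channel of the lysosome, had 140 and 154 and stood at 0.45 (0.11 to 0.79), which becomes -0.15 with total counts.

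Cln3 (chromosome 7, 126571207 to 126585817), the membrane protein deficient in juvenile neuronal ceroid lipofuscinosis, fell from 124 counts in WT to 27 in KO, a log2 fold change of -1.59 (-2.26 to -1.0). Abcb9 (chromosome 5, 124061530 to 124095798), a peptide transporter of the lysosomal membrane, rose from 26 counts to 53, a log2 fold change of 1.60 (0.92 to 2.36). The other 10 tested membrane proteins, none of them called, ranged from -0.80 for Abca2, a lipid transporter, to 0.84 for Slc17a5, the sialic acid exporter.

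The proteins that tag and collect the enzymes had a median of -0.05, near that of all genes. None of 6 was called, where 7.97% of all tested genes were called higher and 8.32% lower. The larger mannose 6-phosphate receptor Igf2r had 184 counts in KO and 434 in WT and stood at -0.64 (-0.90 to -0.39). The smaller receptor M6pr had 712 and 1114 and stood at -0.05 (-0.19 to 0.08). Per length M6pr was the more abundant in both libraries, and the ratio of Igf2r to M6pr in KO was 0.663 times (0.542 to 0.810) that in WT.

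Sort1, the sortilin that carries part of the enzymes without the tag, had 162 counts in KO and 189 in WT and stood at 0.37 (0.06 to 0.68) with TMM and -0.23 with total counts. Gnptab stood at -0.29 (-0.73 to 0.15) and Gnptg, the other gene of the tagging enzyme, at -0.05 (-0.38 to 0.27). Unkl overlaps 49.5% of the exonic length of Gnptg on the other strand, so the counts of Gnptg are uncertain. Nagpa, which uncovers the tag, had 19 counts in KO and 14 in WT, a 2-fold difference after TMM scaling that did not pass the test.

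Among the adaptors and clathrin, 22 of 24 were tested, with a median of -0.17. Of their intervals 7 lay above 0 (31.8%, against 25.8% of all genes) and 9 below (40.9%, against 26.2%). In KO, 1 gene was called higher (4.55%, against 7.97% of all tested genes) and 3 lower (13.6%, against 8.32%). All 3 clathrin chains had intervals below 0, with a median of -0.83. All 3 GGA adaptors had intervals above 0, that of Gga1 only just (0.002 to 0.41). The GGA median was 0.69, which is 0.09 with total counts. The medians were -0.16 over 7 AP-1 subunits, -0.37 over 6 AP-3 subunits and 0.46 over 3 AP-4 subunits, the last being -0.14 with total counts. The AP-4 median is the value of Ap4m1, with Ap4s1 at -0.71 and Ap4e1 at 0.90. Other genes overlap 28.1% of the exonic length of Ap4m1, so its counts are uncertain.

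Gga2 (chromosome 7, 121986722 to 122021222), which binds the tails of the receptors in the Golgi, rose from 16 counts in WT to 72 in KO, a log2 fold change of 2.72 (1.97 to 3.64), the highest of the tested members. At 0.0835 FPKM it had the lowest level in WT of the called members. Gga1, the most abundant GGA, had 467 counts in WT and 357 in KO and stood at 0.20, or -0.40 with total counts, and Gga3 had 151 and 162. The ratio of Gga2 to Gga1 in KO was 5.88 times (3.31 to 11) that in WT.

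The clathrin light chain Cltb (chromosome 13, 54592401 to 54611344) fell from 529 counts in WT to 175 in KO, a log2 fold change of -1.0 (-1.26 to -0.75). The light chain Clta had 168 counts in KO and 451 in WT and stood at -0.83, and the heavy chain Cltc had 263 and 568 and stood at -0.52 (-0.73 to -0.31). The ratio of Cltc to Gga1 in KO was 0.606 times (0.493 to 0.744) that in WT, whatever the scaling.

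Ap3m1 (chromosome 14, 21031442 to 21052508), the medium chain of AP-3, fell from 507 counts in WT to 111 in KO, a log2 fold change of -1.60 (-1.91 to -1.30). Summed with its pseudogene Ap3m1-ps it stood at -1.37. Ap3d1, the delta chain of the same complex, had 1079 counts in KO and 1108 in WT and stood at 0.55 (0.43 to 0.68), which is -0.05 with total counts. The ratio of Ap3m1 to Ap3d1 in KO was 0.225 times (0.178 to 0.282) that in WT. Ap3s1, a small chain, stood at -0.14 (-0.40 to 0.11) and shares 31.6% of its 51-base words with other genes, its pseudogenes among them.

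Ap1s2 (chromosome X, 163909017 to 163933666), a small chain of AP-1, fell from 68 counts in WT to 20 in KO, a log2 fold change of -1.16 (-1.97 to -0.44). The chains Ap1s1, Ap1b1, Ap1m1 and Ap1g1 stood between -0.32 and -0.07, and Ap1g2 stood at 0.56, or -0.04 with total counts. Ap3b2, a neuronal subunit, was at 0 in both libraries, and Ap1m2, of epithelia, had 1 count in KO and 4 in WT.

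**Figure D4:**
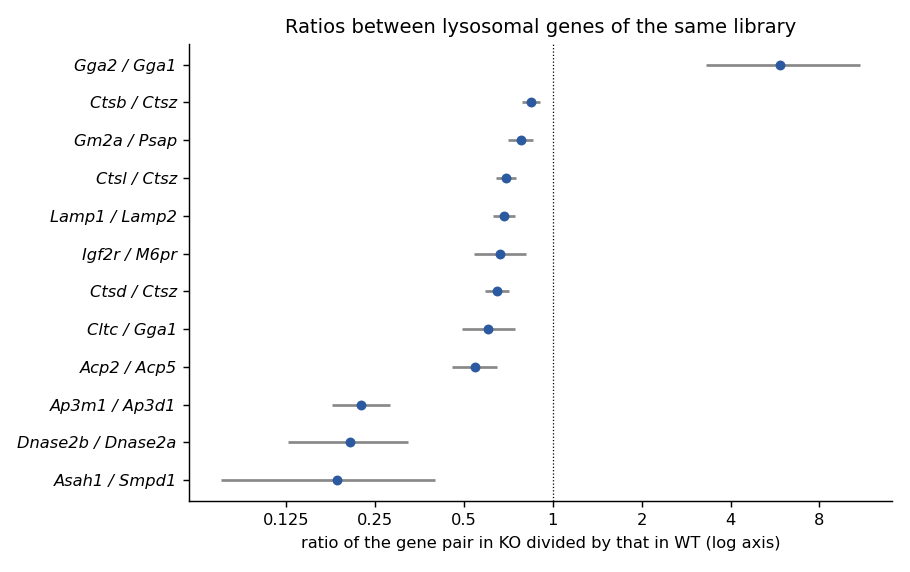
Ratio of 12 pairs of lysosomal genes in KO divided by the same ratio in WT (x axis, log scale), with exact 95% intervals as lines and a dotted line at no difference, for pairs (y axis) chosen after their values were seen. The ratio of Gga2 to Gga1 lies at 5.88, and the intervals of the other 11 pairs lie below 1. Exchanging the genes of a pair inverts its ratio, so the side of 1 depends on the order written.

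A few abundant members held much of the lysosomal counts. The 10 members with the highest mean FPKM, a set taken after the values were seen, are Ctsl, Ctsz, Ctsb, Lamp1, Laptm4a, Acp5, Psap, Ctsd, Gm2a and Cd164. They held 43.4% of the lysosomal counts in KO and 49.2% in WT, with a median log2 fold change of -0.42 and intervals below 0 for all but Acp5. The 868 tested nuclear genes at or above the level of the tenth had a median of -0.14, with 53.8% of their intervals below 0 and 30.8% above. The 79 tested members outside the highest 20 held all 11 calls and had a median of -0.15.

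The log2 fold changes were set beside the promoter letters for the tested members with a promoter window, which leaves out 19 tested members that were not searched and had a median of -0.15. The 21 with CACGTG had a median of -0.08 and the 59 without it had -0.19, and the calls among the 21 were Gga2, higher, and Cln3 and Ap1s2, lower. The 9 with TCACGTGA had a median of -0.16 and the 71 without it had -0.18.

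The genes that control and feed the lysosome were counted by lists of their own. Beside their calls stand those of all tested genes, 7.97% higher and 8.32% lower, and the lists hold few genes. Of 22 tested genes of the TFEB family and of mTORC1 at the lysosome, none was called higher and 2 lower (9.09%), with a median of -0.11. Tfeb itself had 10 counts in KO and 17 in WT, and Tfe3 had 344 and 421, a log2 fold change of 0.30 with TMM and -0.30 with total counts. Lamtor3, of the Ragulator complex that holds mTORC1 at the lysosome, fell from 154 counts in WT to 16 in KO (-2.64). Flcn, the folliculin that acts on the Rag GTPases, fell from 613 to 112 (-1.86). Fnip1, of the same list, stood at 0.92 (0.66 to 1.18) and was not called. Of the 22 intervals 4 lay above 0 (18.2%, against 25.8% of all genes) and 5 below (22.7%, against 26.2%). Overlap with other genes was not checked for the genes of these lists.

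Of 27 autophagy genes 3 were called higher (11.1%, against 7.97% of all tested genes) and 2 lower (7.41%, against 8.32%), with a median of -0.12. Pik3c3, the lipid kinase of early autophagosomes, rose by 1.62 and Map1lc3b, a coat protein of autophagosomes, by 1.22 on the log2 scale. Nbr1, a cargo receptor, fell from 1204 counts in WT to 107 in KO (-2.90). Of 15 genes of fusion with lysosomes none was called higher and 1 lower (6.67%), Arl8a, with a median of -0.16.

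The proton pump was read from 24 V-ATPase subunits, of which 19 were tested. Of these 2 were called higher (10.5%, against 7.97% of all tested genes) and 1 lower (5.26%, against 8.32%), with a median of -0.05. The 10 subunits left out of the members by the rule held 4158 counts in KO and 4740 in WT. Of the 9 of them tested, 5 intervals lay above 0 (55.6%, against 25.8% of all genes) and 1 below (11.1%, against 26.2%). Their median was 0.25, or -0.35 with total counts.

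The markers of the cell types that hold lysosomes are given beside the lysosomal values, and their part in them was not tested. Among all tested genes 7.97% were called higher and 8.32% lower. Of 18 Kupffer cell and macrophage markers, all tested, 1 was called higher (5.56%) and 2 lower (11.1%). Their median was -0.26, with 9 intervals below 0 (50%, against 26.2% of all genes) and 3 above (16.7%, against 25.8%). They summed to 3321 counts in KO and 5926 in WT, or 0.0519% (0.0501 to 0.0537) and 0.0652% (0.0636 to 0.0669) of the nuclear counts. Of the defining genes, Clec4f stood at -0.29 and Adgre1, with 12 and 41 counts, at -1.15. The marker called higher was Ccr2, at 1.68 with 20 counts in KO and 9 in WT. Lyz2 at 0.43 and Mpeg1 at 0.14 also had intervals above 0 with TMM. Of 11 hepatocyte markers none was called higher and 1 lower (9.09%), Apob, with a median of -0.07, 614373 counts in KO and 941481 in WT. Stellate cell markers (10 tested, 2 lower, 20%) had a median of -0.51 and endothelial markers (9 tested, 2 lower, 22.2%) of -0.47. Neutrophil markers (7 of 10 tested, none called, Ly6g at 0 in both) had a median of 0.56, that of Cxcr2 with 8 counts in each library. All 7 neutrophil intervals held 0, and the most abundant markers, S100a8 and S100a9, stood at 0.00 and 0.15. Cholangiocyte markers (5 of 6 tested, 2 higher, 40%) had a median of 0.40, that of Spp1. The 2 called were of low count, Krt19 with 26 in KO and 7 in WT and Krt7 with 15 and 6. Epcam stood at 0.14 and Sox9 at -0.31, both with intervals that hold 0. With total counts the neutrophil and cholangiocyte medians become -0.01 and -0.20.

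**Figure D5:**
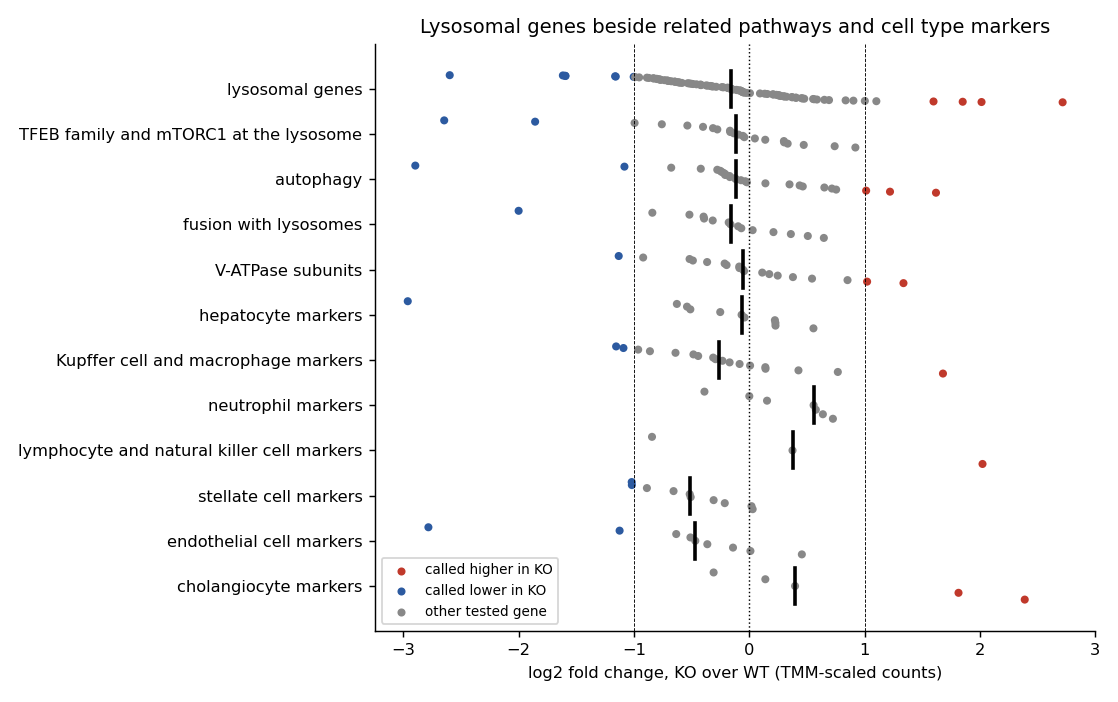
Log2 fold change of KO over WT (x axis, TMM-scaled counts) of the 99 tested lysosomal genes and of the tested genes of each related list (y axis), with medians as black bars, dashed lines at a 2-fold difference and a dotted line at the median of all genes. The median of the lysosomal genes, -0.16, lies beside those of autophagy, -0.12, and of fusion with lysosomes, -0.16, and the Kupffer cell and macrophage markers stand at -0.26.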

How the data were processed

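RNA-seq of poly(A) RNA from liver was compared between 1 KO and 1 WT library. The authors deposited read counts per gene, not normalized, and FPKM. The submitters' processing notes name HISAT2 2.0.4, StringTie, edgeR and the human build hg38, while the table holds mouse Ensembl identifiers. All 110 members are in GENCODE M21 (GRCm38), 75 with the same coordinates. Gene coordinates are those of the deposited table.

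The deposited counts were scaled by TMM in edgeR 4.0.16 (R 4.3.3) and log2 fold changes taken with a prior count of 0.5. Genes whose counts summed to 10 or more were tested by a two-sided exact binomial test (scipy 1.17.1, Python 3.11.15) with Benjamini-Hochberg adjustment over all genes, which needs no replicate spread and compares libraries only. Calls needed an adjusted p of 0.05 or less and a difference of 2-fold or more. Intervals are exact 95% binomial intervals, and those of pair ratios are exact conditional intervals. Reads carry no molecular identifiers, so intervals cover counting error only. The steps were tested on simulated data.

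Members sharing over 10% of exonic length or of 51-base words with another gene were treated as uncertain. There are 23, of which 19 were tested. Ctsa, Ctsm, Hexa, Napsa and Ap1g1 are among them, beside those named above as overlapping or sharing words. Overlap and shared words were measured for the members only, not for the genes of the lists. Promoter windows and the miRNA are from RefSeq (GRCm38.p6), and 3′ UTRs from GENCODE M21. Proteins were not analysed here.

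Named genes are the called members, the 2 of highest summed FPKM in each class and a list of well-known members. Others were named after their values were seen, and some members of the rule are not reported here by name. Members, classes and lists (TFEB family and mTORC1, autophagy, fusion, V-ATPase and cell type markers) were chosen with earlier results of these data known. Alternatives were total counts, DESeq2 1.42.0 size factors, upper quartile scaling, no mitochondrial genes, FPKM (pseudocount 0.1), a larger prior count (5), minimum counts of 1 and 50, no test, an assumed biological coefficient of variation, and no overlapping members.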

Additional observations from a re-analysis of the deposited data

How the results depend on the processing

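No paired analysis was possible because KO and WT have 1 library each, and for the same reason no library could be left out. With total counts 37 members (37.4%, against 25.05% of all genes) were called lower in place of 7, their median was -0.75 and that of all genes -0.60, so the difference between them was -0.15, beside -0.16 with TMM. On FPKM with a pseudocount 2 members were called higher (2.02%, against 2.99% of all genes) and 34 lower (34.3%, against 21.6%), with a median of -0.74 where that of all genes was -0.54. A minimum of 50 counts left 2 members called higher, since Ctsw and Idua were no longer tested. A minimum of 1 count put the other proteases at -0.32 against all genes, since Napsa was added. An assumed biological coefficient of variation of 0.2 left 1 member called higher and 4 lower (1.01% and 4.04%, against 3.60% and 3.27% of all genes), and 0.4 left 0 and 0, where 59 and 58 of all genes were still called. Under the other alternatives the counts of members called were within 1.5 times the 4 higher and 7 lower of the report. Of 12 alternatives, Gga2, Asah1, Ap3m1, Cln3 and Dnase2b kept their call in 11, Ap1s2 in 10, Abcb9 in 9, Idua and Cltb in 8 and Ctsw in 7. Without the members that share exons or sequence words, 4 of 80 were called higher and 5 lower, with a median of -0.15. The search of protein sequences for glycosylation sites and sorting signals was not run.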
